A study of Mus musculus with 1086 samples.

Results

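The liver response to a high fat diet was examined in males of PWK/PhJ (PWK), an inbred wild-derived strain of the subspecies Mus musculus musculus and 1 of the 8 founder strains of the Diversity Outbred mouse stock. All 16 founder libraries labelled PWK were used, 8 from mice on high fat and 8 from mice on standard chow, out of 128 founder libraries and 1086 sequencing records in the whole series. The other founders, with 8 males on each diet, were 129S1/SvImJ (129S1), A/J (AJ), C57BL/6J (B6), CAST/EiJ (CAST), NOD/ShiLtJ (NOD), NZO/HILtJ (NZO) and WSB/EiJ (WSB). PWK males were 26 weeks old and carried no labelled transgene or deletion, and NZO males were 20 weeks old. The mean of the other strains, used below for comparison, includes the younger NZO males, and age was not adjusted for. Founder mice were given their diets from 4 weeks of age. Per the labels, fat gave 17% of the calories in the control food and 45% in the high fat food, which also held 34% of its weight as sucrose. Elsewhere they give the fat content by weight, 6% for chow and 22% for high fat. Where the high fat food also differed in sucrose, the effects of fat and of sugar cannot be told apart. Each library is 1 mouse, and mice of 1 strain are genetically alike, so the results describe this inbred strain.

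The liver takes up fat and sugar from the blood, makes cholesterol, fatty acids and lipoproteins, and secretes most plasma proteins. When dietary fat and cholesterol are plentiful, the SREBP2 pathway that switches on the cholesterol synthesis enzymes is turned down, and PPAR alpha, a receptor for fatty acids, can switch on fatty acid oxidation. Inflammatory cytokines make hepatocytes secrete acute phase proteins, among them orosomucoids, serum amyloids and lipocalin 2.

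Recovered estimated read counts ranged from 7.03 M to 9.99 M a library on chow (median 8.41 M) and from 6.46 M to 11.4 M on high fat (median 8.25 M), where M is 1e+06 reads. Values are given as count equivalents, which are the deposited values times 1 constant for the whole table, so they compare 1 gene between libraries and not different genes. All 5 defining hepatocyte markers (Alb, Ttr, Apoa1, Serpina1a and Hnf4a) were high in every PWK library, and Prss2, Cela2a, Cpa1 and Clps of the exocrine pancreas and Lep of adipocytes were at 0 in all 16. Whole liver was sequenced, so fewer cells of a type and less RNA per cell cannot be told apart. Some libraries stood apart. On the first principal component, which held 19.8% of the variance among PWK libraries, 6 chow libraries lay between -34.2 and -20.8, but chow replicates 1 and 8 lay at -2.82 and 8.12, among the high fat libraries. High fat replicate 4 lay farthest out on that component (58.6), high fat replicate 5 on the second (62.7) and high fat replicate 3 on the third (48.3). The counts and named genes were therefore also computed without high fat replicates 3, 4 and 5 together.

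In PWK liver, 180 genes were higher and 186 were lower on high fat than on chow, out of 13534 tested (limma, adjusted p under 0.05). These 366 genes were 2.70% of those tested, or 1.33% for higher and 1.37% for lower. Of them, 76 rose and 29 fell by a fitted 2-fold or more, and 2352 genes had an unadjusted p under 0.05. By the same fit the share of genes called was 0.133% in AJ, 1.17% in CAST, 1.36% in NOD, 1.44% in 129S1, 3.16% in B6, 5.31% in WSB and 17.5% in NZO. The median change over all genes in PWK was -0.01 (log2). The balance of directions depended on the scaling of the libraries: of the genes called, 49.2% were higher as reported, against 21.8% of 560 when libraries were set to equal totals, 23.4% of 546 with limma-voom and 61.1% of 406 with median of ratios scaling. Leaving out 1 library lowered the total by over 1.5 times for chow replicate 2 (203), 4 (213), 5 (242) or 6 (229) and for high fat replicate 1 (239), 4 (194) or 7 (214). Without high fat replicates 3, 4 and 5 together it was 150, and 91.3% of those 150 were among the 366 (37.4% of the 366).

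**Figure D1:**
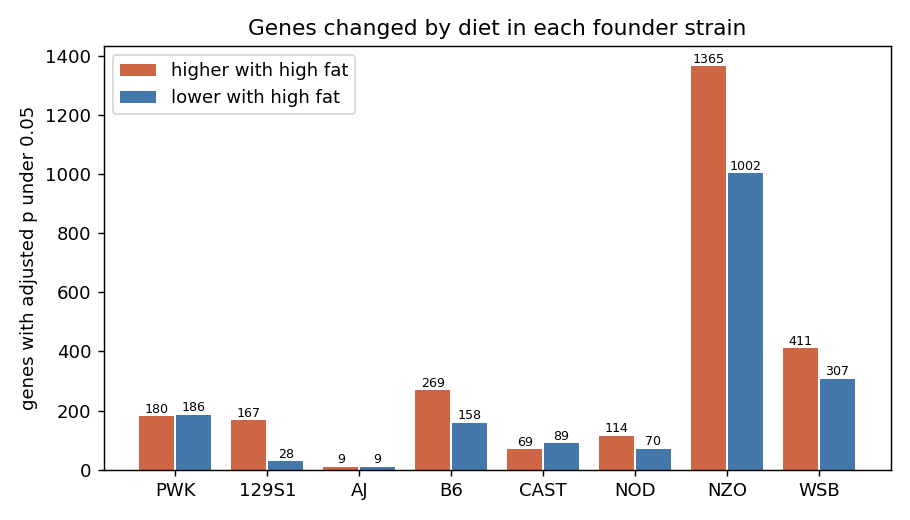
Number of genes with an adjusted p under 0.05 for high fat against chow in each founder strain (horizontal axis), higher and lower shown as separate bars, 8 males a group. PWK had 180 higher and 186 lower genes, between AJ with 9 and 9 and NZO with 1365 and 1002.

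Among called genes with a proper name and a mean of 50 or more, Meg3 rose most. Meg3 is an imprinted long noncoding RNA of the Dlk1-Dio3 region that is expressed from the maternal chromosome. On chow it lay between 4.72 and 9.27 count equivalents, with a median of 6.93. On high fat the lowest library was at 8.32, the median at 127.8 and the highest at 1445. High fat replicates 1 to 7 all lay above every chow library, from 67.5 upward, while replicate 8 stayed within the chow range. The rise was 4.23 ± 0.45 (log2 change ± SE of the model, adjusted p = 3.55e-12). The model pools the spread over all strain and diet groups. In PWK alone the SD of log2 values was 0.28 on chow and 2.23 on high fat, so the SE does not measure the PWK spread. Meg3 was not tested in the fits of PWK libraries alone.

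Scara5, a ferritin receptor that brings iron into cells, was at 6.54 to 227 on chow (median 18.5) and at 119.4 to 517 on high fat (median 251). Only chow replicates 1 (108.5) and 8 (227) came near or into the high fat range, and the other 6 chow libraries were at or below 28.1. The rise was 3.43 ± 0.46 (adjusted p = 2.53e-08). Dio1, the type 1 deiodinase that converts thyroxine to the active thyroid hormone, was at 13.7 to 147.2 on chow (median 55.8) and at 83.2 to 494 on high fat (median 402). High fat replicate 8 was again the low one, and the 7 others lay above all chow libraries. Dio1 rose by 2.77 ± 0.39 (adjusted p = 1.34e-07).

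Apoa4, an apolipoprotein that travels on triglyceride-rich particles and HDL, separated the diets with no overlap. It ran from 2175 to 6885 on chow (median 5287) and from 9701 to 31207 on high fat (median 14131), a rise of 1.70 ± 0.31 (adjusted p = 0.000151). Apoa4 also rose in B6 (1.54 ± 0.31, adjusted p = 0.000705) and NZO (2.28 ± 0.31, adjusted p = 1.96e-08). Acox3, a peroxisomal oxidase of branched acyl-CoA, was at 124.2 to 323 on chow (median 175.2) and at 183 to 629 on high fat (median 425), a rise of 1.07 ± 0.16 (adjusted p = 4.44e-07). For Acox3 too the highest chow libraries were replicates 8 and 1 and the lowest high fat library was replicate 8. Chrna2, a nicotinic acetylcholine receptor subunit, rose by 2.01 ± 0.49 (adjusted p = 0.00802), from a chow median of 151.9 to a high fat median of 752, with high fat replicate 5 alone within the chow range at 91.2. Chrna2 also rose in NOD (2.01 ± 0.49, adjusted p = 0.0162) and NZO (1.88 ± 0.49, adjusted p = 0.00327).

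Kcnk1, a potassium channel, B3galt1, a galactosyltransferase, and Icam1, an adhesion molecule that binds leukocytes, completed the largest increases, at 1.69 ± 0.45, 1.55 ± 0.46 and 1.52 ± 0.44 (adjusted p = 0.0196, 0.0422 and 0.0353). Their groups overlapped, and each lost its call when 1 of several libraries was left out, with the highest adjusted p without high fat replicate 4 for Icam1 (0.129) and without chow replicate 2 for Kcnk1 (0.0923). Without high fat replicates 3, 4 and 5 their adjusted p was 0.0553, 0.109 and 0.109. Their estimates in that fit, with fewer libraries, were not smaller (1.74, 1.62 and 1.52).

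Among genes of lower level, which were singled out after their values were seen, Plch1, a phospholipase C, was at 0 to 5.56 on chow (median 1.06) and at 12.9 to 100.979 on high fat (median 30.8). Gdpd1, a glycerophosphodiester phosphodiesterase, was at 3.08 to 8.34 on chow (median 5.37) and at 20.52 to 40.6 on high fat (median 23.9). Neither overlapped between diets, and they rose by 4.02 ± 0.47 and 2.14 ± 0.27 (adjusted p = 1.9e-10 and 6.91e-09).

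**Figure D2:**
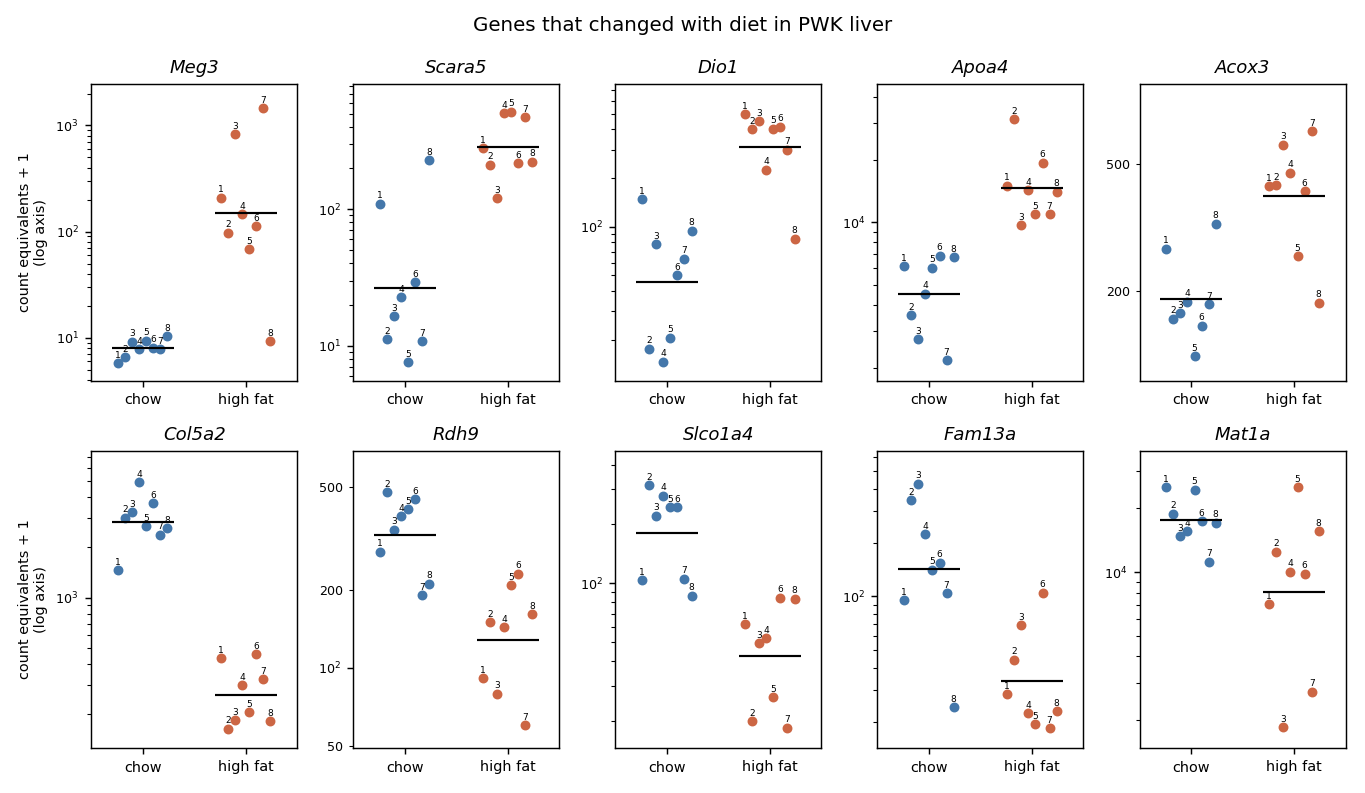
Count equivalents plus 1 (log axis) in each of the 16 PWK libraries for 10 genes that changed with diet, with replicate numbers beside the points and horizontal bars at the geometric means. Col5a2, Slco1a4 and Apoa4 do not overlap between diets, and chow replicates 1 and 8 lie nearest to high fat in Scara5, Dio1 and Acox3.

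Col5a2, which encodes a chain of the fibrillar collagen V, fell most among called genes with a proper name and a mean of 50 or more. Chow libraries ran from 1457 to 4916 (median 2844) and high fat libraries from 163.3 to 458 (median 251). The groups were separated by a wide gap, and the fall was -3.44 ± 0.34 (adjusted p = 1.9e-13), or 10.9-fold. The list of stellate cell and matrix genes, which holds other collagens such as Col1a1, Col1a2, Col3a1 and Col5a1, had 0 of 25 tested members called in either direction, against 2.70% of all genes, and a median change of -0.02. The shares of all genes that rose (1.33%) and fell (1.37%) are the background for every count of list members in PWK given here.

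Of 31 tested genes with higher expression in female liver, 2 were lower and 0 were higher on high fat (against 1.37% and 1.33% of all genes), among them the P450 Cyp2c69 (-2.41 ± 0.70, adjusted p = 0.0369), with a list median of -0.05. Of 30 tested male-biased genes 0 were called, and their median was 0.01.

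Slco1a4, an uptake transporter for bile acids and other organic anions, was at 85.3 to 313 on chow (median 231) and at 17.4 to 83.4 on high fat (median 50.1). The groups did not overlap, although chow replicate 8 and high fat replicates 6 and 8 nearly met. It fell by 2.07 ± 0.42 on the log2 scale (adjusted p = 0.00095), and it also fell in CAST (-1.75 ± 0.42, adjusted p = 0.00926). Fam13a fell by 2.08 ± 0.52 on the log2 scale (adjusted p = 0.0118), from a chow median of 146.9 (23.2 to 426) to a high fat median of 24.8 (17.4 to 103.999). Chow replicate 8 was the lowest chow library for Fam13a, and without high fat replicates 3, 4 and 5 its adjusted p was 0.0724. Fam13a also fell in CAST (-1.90 ± 0.52, adjusted p = 0.0395) and rose in NZO (1.56 ± 0.52, adjusted p = 0.0267).

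Mat1a, which makes S-adenosylmethionine, the methyl donor of the hepatocyte, was at 11211 to 25266 on chow (median 17228) and at 1844 to 25168 on high fat (median 9912). High fat replicates 3 (1844) and 7 (2715) were far below the rest, and replicate 5 was near the top of the chow range. The change was -1.13 ± 0.25 (adjusted p = 0.00285), and with the 16 PWK libraries fitted alone the adjusted p was 0.127. Slc39a4, the zinc importer ZIP4, was at 142.7 to 268 on chow and at 44.6 to 173.5 on high fat, with 7 of 8 high fat libraries below all chow libraries (-1.08 ± 0.21, adjusted p = 0.000354).

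Other large decreases were those of the retinol dehydrogenase Rdh9 (-1.35 ± 0.29), the FGF co-receptor Klb (-1.30 ± 0.38), the P450 Cyp4f14 (-1.05 ± 0.27), the kinase Mast3 (-1.04 ± 0.30), the phosphodiesterase Pde4c (-0.98 ± 0.26) and the mevalonate pathway kinase Pmvk (-0.98 ± 0.28), with adjusted p from 0.00171 (Rdh9) to 0.0394 (Klb). Rdh9 kept its call under every alternative run, and it also fell in WSB (-1.63 ± 0.29, adjusted p = 4.79e-05). Klb, Cyp4f14, Mast3, Pde4c and Pmvk each lost theirs when 1 of several libraries was left out, high fat replicate 4 among them for all 5. Without that library the adjusted p was 0.105, 0.0748, 0.162, 0.0626 and 0.0598. A second retinol dehydrogenase of lower level, Rdh16, singled out after its values were seen, went from a chow median of 49.5 to a high fat median of 13.4 (-1.81 ± 0.31, adjusted p = 2.61e-05). Rdh9 and Rdh16 belong to a cluster of similar genes between which reads may have been divided unevenly.

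The acute phase and complement list pointed one way in PWK. All 31 members tested had estimates above 0, with a median change of 0.62 against -0.01 over all genes, and 3 rose, namely Orm1, Orm3 and Lcn2, against 1.33% of all genes. Orm1, an orosomucoid of the plasma, was at 149.5 to 4423 on chow (median 785) and at 1459 to 29321 on high fat (median 4084), and rose by 2.15 ± 0.42 (adjusted p = 0.000437, or 0.0699 with PWK libraries fitted alone). Chow replicates 1 (4423) and 8 (3663) lay within the high fat range, and high fat replicate 5 was the highest by far. Lcn2, lipocalin 2, which binds bacterial iron carriers, was at 55.1 to 2899.8 on chow (median 81.2) and at 119.4 to 14412 on high fat (median 3772).

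Lcn2 on chow was above 103.5 in replicates 1 (2899.8) and 8 (1447) alone, and on high fat it was lowest in replicates 3 (119.4) and 6 (434). The rise was 3.74 ± 0.93 (adjusted p = 0.0109), with an adjusted p of 0.0550 without high fat replicates 3, 4 and 5 and of 0.0533 with PWK libraries fitted alone. For Orm3 the rise was 2.56 ± 0.54 (adjusted p = 0.00178), from 24.3 to 154.8 on chow to 146.1 to 888 on high fat. Orm3 also rose in B6 (2.70 ± 0.54, adjusted p = 0.000606). The serum amyloids Saa1 (0.99 ± 0.55, adjusted p = 0.341) and Saa3 (3.00 ± 1.05, adjusted p = 0.0954) and the iron hormone gene Hamp (2.39 ± 0.82, adjusted p = 0.0889) did not pass. Orm1, Orm2 and Orm3 are similar genes of 1 family, as are Saa1 and Saa2, so the split of reads within each family is uncertain. Leaving out chow replicate 1 or 8 or high fat replicate 3 raised the number of the list's called members from 3 to 6, leaving out high fat replicate 6 raised it to 7, and the fit of PWK libraries alone called 1.

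Of 7 neutrophil genes tested, 3 rose, against 1.33% of all genes, and the median change was 1.83. S100a8, which pairs with S100a9 as calprotectin, was at 0.919 to 5.13 on chow and at 6.94 to 52.6 on high fat, with no overlap (2.22 ± 0.57, adjusted p = 0.0158). The gelatinase gene Mmp9 rose by 2.14 ± 0.43 (adjusted p = 0.000893) and S100a9 by 1.92 ± 0.58 (adjusted p = 0.0455). Without high fat replicate 4 the adjusted p of S100a8 was 0.0532 and that of S100a9 0.1305. S100a9 lost its call in 18 of 28 alternatives, 13 of which left out 1 library. Chow replicates 1 and 8, the highest chow libraries for Lcn2, were within the range of the other chow libraries for S100a8 (2.83 and 3.71). They were not raised for Mmp9 either (0.943 and 0). For S100a9, however, chow replicate 8 was the highest chow library (24.1, with the next at 14.9). For Retnlg, another gene of the list, chow replicate 1 was the highest (7.55, with the next at 6.54). The summed level of all 13 neutrophil genes was 51.1 to 84.4 on chow (median 66.7) and 58.4 to 362 on high fat (median 154.9). Defining granule genes were near the floor, since Elane was at 0 in 13, Camp in 12 and Mpo in 9 of the 16 libraries, and Ly6g had a median of 1.97 on chow and 1.27 on high fat. The number called was 1 without high fat replicate 4 or without replicates 3, 4 and 5 together, and 5 without replicate 3. The part of neutrophils in the acute phase result was not tested.

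In the macrophage and Kupffer cell list 1 of 26 members rose, Cd14, the lipopolysaccharide co-receptor (1.69 ± 0.48, adjusted p = 0.0342), which is also made by hepatocytes. The Kupffer cell markers Clec4f, Vsig4 and Cd5l were not called. Cd14 lost its call without any 1 of 10 libraries, with adjusted p from 0.0526 to 0.105. No member was called among 29 interferon response genes (median 0.11), 5 genes of T, B and NK cells, 18 endothelial genes (median -0.13), 9 cholangiocyte genes (median 0.24) and 8 red blood cell genes (median -0.02), nor the 1 tested gene of the exocrine pancreas.

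**Figure D3:**
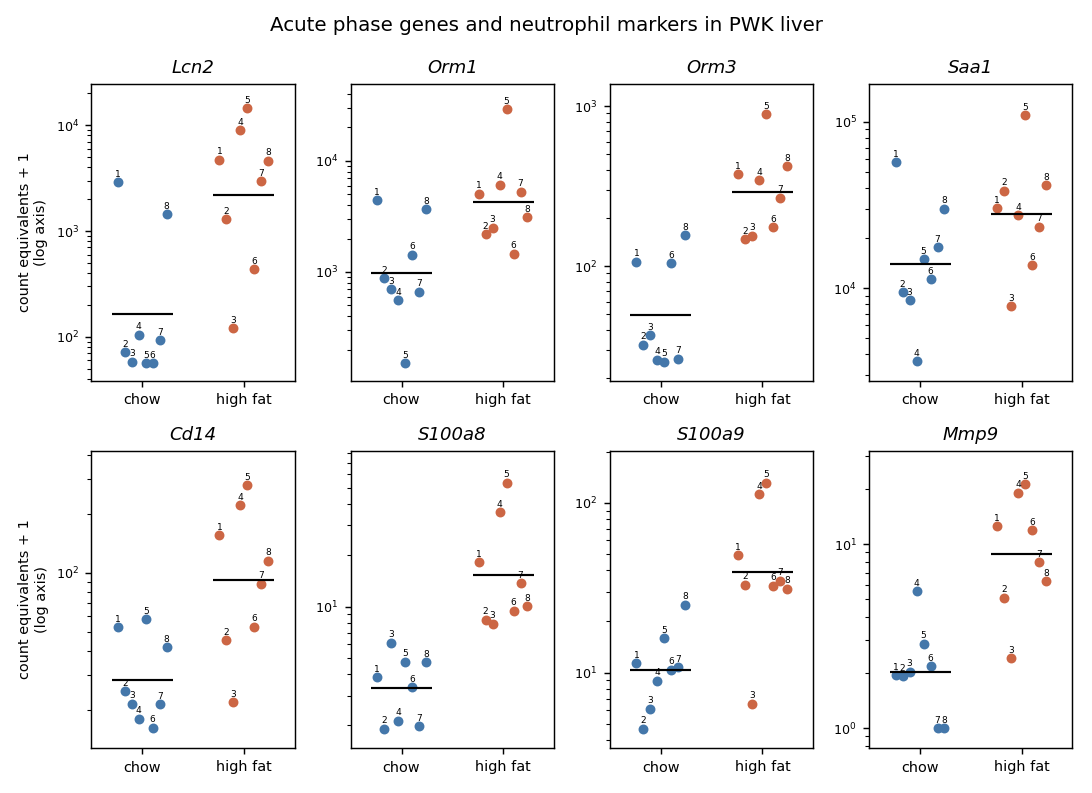
Count equivalents plus 1 (log axis) in each PWK library for 5 genes of the acute phase and macrophage lists and 3 neutrophil markers, with replicate numbers beside the points and bars at the geometric means. Chow replicates 1 and 8 reach 2899.8 and 1447 for Lcn2, and high fat replicate 5 is the highest library in all 8 panels.

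Cholesterol synthesis and uptake genes pointed down on high fat. All 24 tested members had estimates below 0, with a median of -0.75, and 4 fell (Ebp, Tm7sf2, Stard4 and Pmvk), against 1.37% of all genes. Ebp, a sterol isomerase late in the pathway, was at 1266 to 1633 on chow (median 1372) and at 726 to 1146 on high fat (median 1036), with no overlap and a fall of 0.50 ± 0.10 on the log2 scale (adjusted p = 0.00097). Tm7sf2, a sterol reductase, was at 501 to 755 on chow and at 192 to 440.2 on high fat, also with no overlap (-0.90 ± 0.23, adjusted p = 0.0137). Stard4, which carries cholesterol between membranes, was at 727 to 1642 on chow and at 287 to 687 on high fat (-0.95 ± 0.27, adjusted p = 0.0299), and lost its call without any 1 of 7 libraries, high fat replicate 4 most (adjusted p = 0.084).

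Pmvk was at 120.6 to 267 on chow and at 36.9 to 128 on high fat, with high fat replicate 3 alone reaching into the chow range. The epoxidase Sqle, an early enzyme of the sterol branch, was not called (-1.07 ± 0.68, adjusted p = 0.426). Sqle varied widely, from 134.8 to 828 on chow and from 34.5 to 515 on high fat. The number of cholesterol genes called was 2 without chow replicate 2 or 3 or high fat replicate 2 or 4, and 3 or 4 without any other single library. Without high fat replicates 3, 4 and 5 it was 1, Ebp, and with weights that count outlying libraries less it was 15.

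By comparison, the mean diet effect of the other 7 strains called 1798 genes higher and 1254 lower, 22.6% of those tested (13.3% higher and 9.27% lower), and all 24 cholesterol genes were among the lower ones, with a list median of -0.92. A mean over 7 strains has a smaller error than PWK alone, so these counts do not compare like with like. In the test of the difference between PWK and the other strains, 0 of the 24 were called, against 1.71% of all genes. The widest difference was that of Sqle, at -1.07 in PWK and -3.34 ± 0.26 in the other strains (difference 2.27 ± 0.72, adjusted p = 0.0706).

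**Figure D4:**
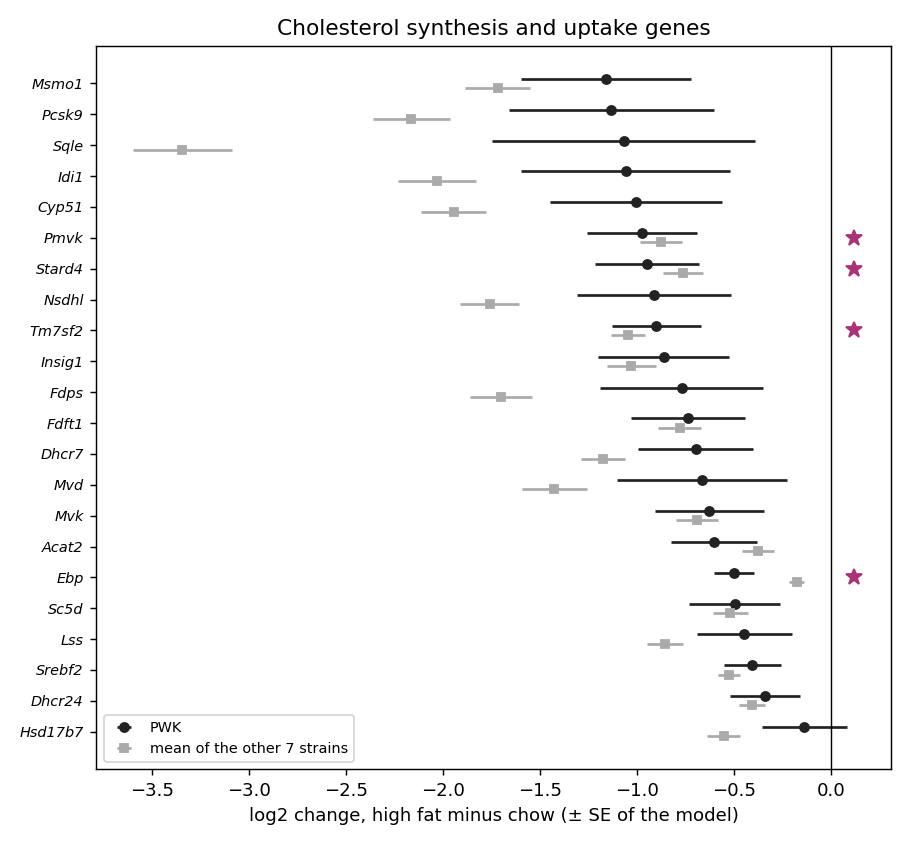
Log2 change from chow to high fat (horizontal axis, ± SE of the model) of 22 of the 24 cholesterol genes in PWK and in the mean of the other 7 strains, stars marking an adjusted p under 0.05 in PWK. Every estimate lies below 0, and the PWK estimate of Sqle (-1.07) is nearer to 0 than that of the other strains (-3.34).

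Because all estimates of the cholesterol list lay below 0, their promoters were searched for 2 motifs of the SREBP pathway, on both strands: the sterol regulatory element TCACCCCAC and the CCAAT box (CCAAT or ATTGG), where the NF-Y factor that works beside SREBP binds. RefSeq promoter windows of 300 bases on GRCm38.p6 were found for 17 of the 25 genes listed. A CCAAT box was in 16 of the 17 (94.1%) against 41.1% of all 27025 genes with a window. The exact element TCACCCCAC was in 1 of 17, that of Hmgcs1, against 0.614% of all genes. Hmgcs1 was listed but absent from the founder values, so it is not among the 24 genes with an estimate. No gene with an estimate had the exact element in its window. The windows of Ebp and Tm7sf2, the 2 called genes with the smallest p, are shown with each match in capitals. That of Ebp, at chrX:8193463-8193762 on the minus strand, holds 2 CCAAT boxes, and that of Tm7sf2, at chr19:6067801-6068100 on the minus strand, holds 1. A match describes the letters and does not show that a factor binds.
Ebp: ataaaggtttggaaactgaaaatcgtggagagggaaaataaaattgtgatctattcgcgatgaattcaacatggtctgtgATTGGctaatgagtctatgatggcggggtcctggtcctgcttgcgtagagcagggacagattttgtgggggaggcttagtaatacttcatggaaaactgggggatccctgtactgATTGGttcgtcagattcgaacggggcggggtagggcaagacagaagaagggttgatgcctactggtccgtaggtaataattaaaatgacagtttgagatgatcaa
Tm7sf2: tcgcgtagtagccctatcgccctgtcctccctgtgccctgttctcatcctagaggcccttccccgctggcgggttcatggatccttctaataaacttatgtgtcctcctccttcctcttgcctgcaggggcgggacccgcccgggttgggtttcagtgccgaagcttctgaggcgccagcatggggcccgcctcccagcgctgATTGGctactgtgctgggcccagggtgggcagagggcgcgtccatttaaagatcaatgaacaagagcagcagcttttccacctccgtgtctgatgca

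Genes of fatty acid and triglyceride synthesis had a median of -0.28, with 19 of 23 estimates below 0, and 1 of 23 fell, against 1.37% of all genes. That was Fads1, the delta-5 desaturase of polyunsaturated fatty acids (-0.77 ± 0.19, adjusted p = 0.00996), at 3151 to 4416 on chow and 1384 to 4219 on high fat. The regulator Srebf1 and major enzymes of the pathway were not called: Srebf1 was at -0.51 ± 0.31 (adjusted p = 0.388), Fasn at -0.54 ± 0.31 (adjusted p = 0.368) and Scd1 at -0.61 ± 0.46 (adjusted p = 0.527). Pnpla3, a lipid droplet hydrolase, was at -0.07 ± 0.58 (adjusted p = 0.969). Srebf1 was the one of these whose diet effect differed from the other strains, where it rose by 0.62 ± 0.12 (difference -1.14 ± 0.33, adjusted p = 0.0463).

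Of 34 tested genes of fatty acid oxidation, ketone bodies and PPAR alpha targets, 1 rose, against 1.33% of all genes, with a median of 0.13. Vnn1, the pantetheinase that PPAR alpha induces, was at 0 to 18.7 on chow (median 3.54) and at 8.33 to 279.8 on high fat (median 43.8), and rose by 2.93 ± 0.47 (adjusted p = 5.73e-06). High fat libraries overlapped the chow range in 4 of 8. Cyp4a14 (0.39 ± 0.95, adjusted p = 0.885) and Fgf21 (0.62 ± 0.63, adjusted p = 0.668) had levels near the floor of the libraries. Among 20 lipid droplet genes 1 rose, Fitm1, which helps to form lipid droplets, at 0 to 5.86 on chow and 2.63 to 10.7 on high fat (2.13 ± 0.30, adjusted p = 1.34e-07). Cidec (0.63 ± 0.62, adjusted p = 0.649), Cd36 (-0.03 ± 0.29, adjusted p = 0.972) and Plin2 (0.69 ± 0.32, adjusted p = 0.23) did not pass, and for Cidec high fat replicate 5, at 0.877, lay far below the other 7.

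In the bile acid list, beside the falls of Slco1a4 and Klb, the efflux pump Abcc3 rose by 0.93 ± 0.27 (adjusted p = 0.0377), and 20 of 23 tested members were not called. Cyp7a1, the rate-limiting enzyme of bile acid synthesis, was at 322 to 1004 on chow (median 688) and at 20.3 to 1497 on high fat (median 197). High fat replicate 3 held the highest value and replicate 4 the lowest, so the high fat group spanned the whole chow group (-1.70 ± 0.87, adjusted p = 0.298). Cyp8b1, which sets the share of cholic acid, was at -0.01 ± 0.41 (adjusted p = 0.996). Of 24 lipoprotein and sterol efflux genes, Apoa4 rose and 2 fell: Mylip, a ubiquitin ligase induced by sterol-sensing LXR (-0.67 ± 0.16, adjusted p = 0.0048), and Apoa1, the main protein of HDL (-0.47 ± 0.14, adjusted p = 0.0378). Abcc3 without high fat replicate 4 (adjusted p = 0.13) and Apoa1 without high fat replicate 7 (adjusted p = 0.108) lost their calls, as they did without several other single libraries. Abcg5, a sterol exporter, was at -0.24 ± 0.25 (adjusted p = 0.68).

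Genes of amino acid catabolism and the urea cycle had a median of -0.25, with 27 of 33 estimates below 0, and 4 fell, against 1.37% of all genes. Beside Mat1a these were Cps1, which starts the urea cycle (-0.56 ± 0.15, adjusted p = 0.0208), Ass1, a later enzyme of that cycle (-0.65 ± 0.18, adjusted p = 0.0285), and Agxt, which removes glyoxylate (-0.58 ± 0.17, adjusted p = 0.0439). Cps1, Ass1 and Apoa1 are also the 3 of 22 hepatocyte genes that fell. The summed level of the hepatocyte list was 917423 to 1324940 on chow (median 1117830) and 676239 to 1525000 on high fat (median 896267), so the groups overlapped, and the part of hepatocyte content in these results was not tested. Without high fat replicates 3, 4 and 5, Fads1, Abcc3, Mylip, Apoa1, Cps1, Ass1 and Agxt were not called (adjusted p from 0.0776 to 0.232), while Mat1a (0.00859), Vnn1 (1.57e-05) and Fitm1 kept their calls.

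No gene was called among 26 of glucose and fructose metabolism, 25 of glutathione and NRF2 targets, 20 of the unfolded protein response, 20 of the circadian clock, 28 ribosomal proteins and 27 circulating factors, among them Igfbp1 (-0.90 ± 0.81, adjusted p = 0.609). List medians ran from -0.28 for the clock, where 17 of 20 estimates were below 0, to 0.28 for the unfolded protein response, where 18 of 20 were above 0. Of 41 genes of cytochrome P450 and conjugation 1 fell and 0 rose. Single members rose in 3 further lists: Cycs, cytochrome c (0.40 ± 0.09, adjusted p = 0.00258), Aurka, a mitotic kinase (1.36 ± 0.31, adjusted p = 0.00455), and Adrb3 (1.28 ± 0.35, adjusted p = 0.0255), a receptor of fat cells whose highest value in any PWK library was 7.89. In the zone list Slc1a2, a pericentral glutamate transporter, fell by 0.75 ± 0.20 on the log2 scale (adjusted p = 0.0234).

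To ask where the PWK response differed from that of the other founders, the diet effect in PWK was compared with the mean diet effect of the other 7 strains in 1 test. It differed for 232 genes (1.71%), with the PWK effect above that of the others in 0.828% of all genes tested and below it in 0.887%. Of the 366 genes called in PWK, 37.4% also differed in this test, against 1.71% of all genes. These genes were picked by the PWK effect, which is a part of the difference tested, so the 37.4% is not independent of that choice. In the mean of the other strains, 28.7% of the 366 were called in the same direction and 2.19% in the opposite one. Of all genes, 13.3% were higher and 9.27% lower in that mean. The count of 232 ranged from 74 without chow replicate 4 to 370 without high fat replicate 6, and it was 22 without high fat replicates 3, 4 and 5. It also rose by over 1.5 times without chow replicate 1 (352) or 8 (361). It dropped by over 1.5 times, to between 0.717% and 1.04% of genes tested, without chow replicate 2, 5 or 6 or high fat replicate 4, 5 or 7.

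Among the genes named here Meg3 had the smallest adjusted p for the difference (4.69 ± 0.48, adjusted p = 1.1e-12), with the SE pooled over all groups. PWK on chow, with a median of 6.93, lay among the low strains, and on high fat its median of 127.8 was near the level of CAST, whose medians were 167.2 on chow and 125.1 on high fat. 129S1 followed at 73.1 and 82.1, and the other 5 strains had medians from 1.56 to 30.1 on either diet. In B6, Meg3 went the other way, from 15.5 to 4.18 (-1.62 ± 0.45, adjusted p = 0.0224).

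For Col5a2 the levels set PWK and WSB apart from all other strains. WSB was at 2781 to 8924 on chow (median 6305) and at 997 to 3200.3 on high fat (median 2058), also with no overlap and a fall of 1.60 ± 0.34 on the log2 scale (adjusted p = 0.00106). In the 6 other strains medians ran from 13.7 to 61.1 on either diet, and none of these 6 was called, although 1 B6 chow library stood at 624.5. The effect in PWK differed from the mean of the 7 others by -3.13 ± 0.36 (adjusted p = 2.18e-10), and the difference between PWK and WSB alone was not tested.

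Scara5, Orm1 and Lcn2 shared another pattern of levels, in which PWK on chow had the lowest median of all strains. For Scara5 the other strains had chow medians from 333 to 881, against 18.5 in PWK on chow and 251 on high fat (difference of the diet effect 3.35 ± 0.49, adjusted p = 6.77e-07). For Orm1 they ran from 4639 to 15133, against 785 and 4084 in PWK (difference 2.49 ± 0.45, adjusted p = 0.000168). Lcn2 chow medians of the others ran from 287 to 6244, against 81.2 in PWK (difference 4.30 ± 1.00, adjusted p = 0.0113), and in NZO Lcn2 and Orm1 fell on high fat (-2.70 ± 0.93 and -1.22 ± 0.42, adjusted p = 0.0322 and 0.0309). Dio1 on chow was low in NOD (median 31.2) as in PWK, and it rose in both (1.52 ± 0.39 in NOD, adjusted p = 0.0236), while the PWK effect exceeded the mean of the others by 2.01 ± 0.41 (adjusted p = 0.00297).

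**Figure D5:**
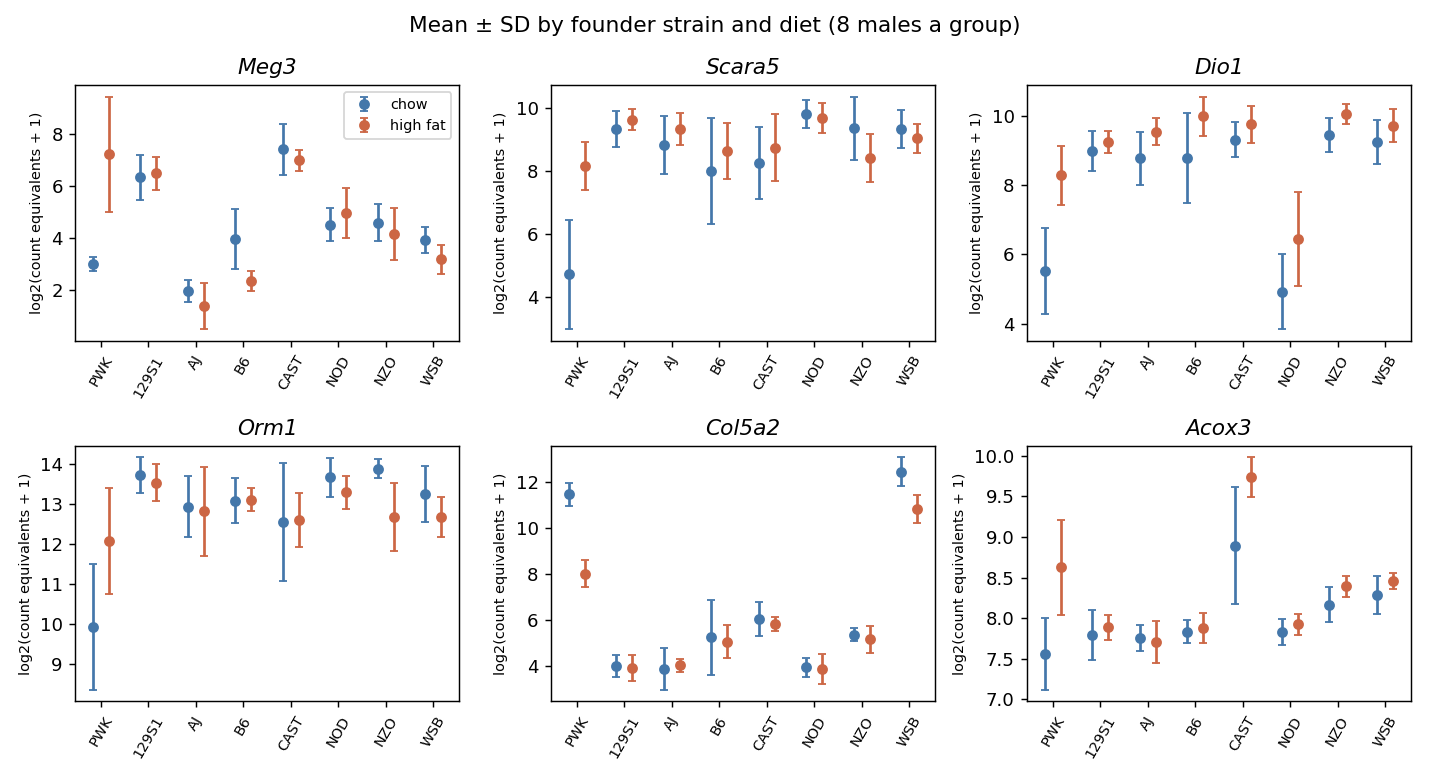
Mean ± SD over 8 males of log2(count equivalents + 1) for 6 genes in each founder strain on chow and high fat. PWK on chow is the lowest chow group for Scara5 and Orm1, and Col5a2 is high in PWK and WSB, where it falls on high fat.

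Other genes with the smallest p for a larger change in PWK were Eif4ebp1, a repressor of cap-dependent translation (0.79 ± 0.14, adjusted p = 0.000116), Acox3 (0.86 ± 0.17, adjusted p = 0.000877) and Sh3bp2, a signalling adaptor (1.11 ± 0.22, adjusted p = 0.00114). Within PWK, Eif4ebp1 was at 55.5 to 78.6 on chow and at 67.3 to 169.3 on high fat, and Sh3bp2 at 25.6 to 59.3 and at 55.6 to 213. In CAST, which like PWK is wild-derived, Acox3 also rose (0.84 ± 0.16, adjusted p = 0.000215). Genes with a lower effect in PWK were Hp1bp3, a heterochromatin protein gene (-0.31 ± 0.06, adjusted p = 0.000801), Sft2d2, of vesicle transport (-0.45 ± 0.09, adjusted p = 0.00314), Slc39a4 (-1.02 ± 0.22, adjusted p = 0.00515) and Akap8l (-0.46 ± 0.10, adjusted p = 0.0075). Akap8l fell in PWK from 185 to 242 on chow to 136.65 to 171.2 on high fat, with no overlap. Slc39a4 also fell in B6 (-1.08 ± 0.21, adjusted p = 0.000266) and rose in CAST (1.00 ± 0.21, adjusted p = 0.00133). Without high fat replicates 3, 4 and 5, the differences of Sh3bp2, Hp1bp3, Sft2d2 and Akap8l were not called (adjusted p from 0.0726 to 0.116).

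By count, acute phase genes were the list with most differences of this kind. A higher effect in PWK was called for 4 of 31, against 0.828% of all genes. These were Orm1, Lcn2, Apcs (2.13 ± 0.53, adjusted p = 0.018) and Saa3 (3.87 ± 1.12, adjusted p = 0.0487). Within PWK, Apcs and Saa3 were not called for diet. High fat replicate 5 was the highest PWK library for both, at 23930 for Apcs and 13060 for Saa3. The next libraries were at 5067 and 3762. In the mean of the other strains 1 of the 31 was higher and 9 were lower, with a list median of -0.25 against 0.62 in PWK. Of all genes, 13.3% were higher and 9.27% lower in that mean. Of 34 fatty acid oxidation genes 0 had a higher and 1 a lower effect in PWK, against 0.828% and 0.887% of all genes. Yet 25 rose in the mean of the other strains and 1 did in PWK, against 13.3% and 1.33% of all genes. A call in one and not in the other thus did not amount to a difference. The same held for 31 respiratory chain genes, of which 22 rose in the mean of the others and 1 in PWK, with 0 differences called.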

How the data were processed

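Single-end reads of 100 bases were made from liver mRNA. Per the submitters' processing notes, CASAVA 1.8.0, Bowtie 0.12.8, RSEM 1.2.1 and the NCBIM37 (mm9) build were used, and the name of the deposited founder table says that reads were aligned to strain genomes. The authors deposited a normalized signal per gene and founder library: estimated read counts divided by the library's upper quartile, which was 1 in all 128 columns. These values were multiplied by 114.907, the mean upper quartile count recovered from the steps of low values, to give count equivalents. Between 80.4% and 83.9% of recovered low values in each PWK library were whole within 0.1. Of 24965 genes, 22760 had a symbol.

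Genes at 10 or more in at least 8 libraries (13534) were tested with limma 3.58.1 in R 4.3.3 on log2(count equivalents + 1), with an intensity trend, over all 128 libraries in 16 strain and diet groups, and p-values were Benjamini-Hochberg adjusted over all genes tested (threshold 0.05). Fold changes on this scale understate the change of low genes. Errors after ± in the report are standard errors of that model, which pools the spread over all 16 groups. They do not measure the spread within PWK alone. The 8 sequencing lanes each held 1 library of every strain and diet. Deviations of PWK libraries of 1 lane did not correlate, so lanes were not used as pairs. Replicates are separate males, numbered in the order of the records.

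Named genes were the 12 with the largest increase and the 12 with the largest decrease among those called with a mean of 50 or more and a proper name, the 6 with the smallest p in each direction for the difference from the other strains, 17 fixed genes and the called members of 31 gene lists. Members and lists were chosen with earlier results of these data known. The procedure was tested on simulated data with the same spread in every group and no outlying libraries. That test does not cover the unequal spread and outlying libraries seen in PWK. Intervals between libraries cover biological and technical spread together. The annotation at hand is of a later build (GRCm38) than the files, so coordinates are given only for RefSeq promoter windows, on that build. The Diversity Outbred libraries were not used, and a few genes that the rule names are not reported here.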

Additional observations from a re-analysis of the deposited data

Results flagged for a closer look

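In 6 of 84 groups of 8 PWK libraries examined (42 genes on both diets), the lowest library lay farther from its nearest neighbour than allowed by Dixon's ratio of gap to range on the log2 scale, and chance alone picks about 1 in 20 groups. These were Dio1 in high fat replicate 8 (ratio 0.555, 83.2 count equivalents with the next library at 224), Chrna2 in high fat replicate 5 (0.562, 91.2 and 412), Mast3 in high fat replicate 4 (0.741, 49.6 and 160.9), Pmvk in high fat replicate 2 (0.631, 36.9 and 81.02), Cidec in high fat replicate 5 (0.548, 0.877 and 8.33) and Cyp8b1 in high fat replicate 5 (0.619, 43.0 and 419). High fat replicate 5 accounted for 3 of the 6.

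For 20 of the 42 genes the diet effect in PWK differed from the mean of the other 7 strains (limma, adjusted p under 0.05). The PWK effect was the higher one, in log2 units, for Meg3 (4.69), Lcn2 (4.30), Scara5 (3.35), Orm1 (2.49), Cd14 (2.04), Dio1 (2.01), Sh3bp2 (1.11), Acox3 (0.86) and Eif4ebp1 (0.79). It was the lower one for Col5a2 (-3.13), Fam13a (-2.37), Slco1a4 (-1.78), Klb (-1.47), Srebf1 (-1.14), Slc39a4 (-1.02), Cyp4f14 (-1.002), Mat1a (-0.98), Akap8l (-0.46), Sft2d2 (-0.45) and Hp1bp3 (-0.31). In CAST too the effects of Fam13a (-1.90) and Slco1a4 (-1.75) were below 0 and called, and the difference between PWK and CAST was not tested. Over all genes tested, 1.71% differed. Of the 20, 11 were named for having the smallest p in this same test. The others, apart from Srebf1, were named for a large diet change in PWK, which is a part of the difference tested. The count is therefore not independent of how the genes were chosen.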

How the results depend on the processing

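Under every alternative run, 28 for each gene but Meg3 with 26 (untested in both fits of PWK libraries alone), 10 of the 24 genes named for their change in PWK kept their calls (among them Meg3, Scara5, Dio1, Orm3, Apoa4, Col5a2, Slco1a4, Rdh9 and Slc39a4), 14 lost theirs at least once and 0 changed sign. As percent of genes tested, 2.70% were called in PWK (1.33% higher, 1.37% lower) and 1.71% differed from the other strains. Weights per library gave 9.08% (4.27% higher, 4.81% lower) and 7.38%. Equal totals gave 4.13% called and 3.23% lower, and limma-voom 3.09% lower. Leaving out high fat replicates 3, 4 and 5, chosen after seeing the data as the libraries farthest out, gave 1.11% (0.607% higher, 0.504% lower) and 0.163%. That fit too had fewer libraries. Leaving out 1 PWK library at a time gave 1.43% to 3.52% called, 0.791% to 1.81% higher, 0.643% to 1.71% lower and 0.547% to 2.74% differing, with fewer samples in each fit. With the lane as a replicate block, 2.64% were called over all libraries, and 1.06% (0.471% higher, 0.591% lower) with PWK libraries alone, against 2.95% for those without the block. Same-lane deviations correlated between -0.15 and 0.06, so the block is no pairing. The cause of these shifts was not tested. Changes of genes with chow medians below 10 count equivalents, such as Fitm1, Adrb3 and Mmp9, rest on few reads.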

Other observations

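Of the genes of lower level singled out after their values were seen, Plch1 and Gdpd1 had a higher diet effect in PWK than in the other 7 strains (4.04 ± 0.50 and 2.76 ± 0.29 in log2, limma adjusted p = 1.83e-09 and 3.74e-12), and Rdh16 a lower one (-2.07 ± 0.33, adjusted p = 8.3e-06). In the mean of the others Gdpd1 was at -0.62 ± 0.10. The gelatinase gene Mmp9 (1.97 ± 0.46, adjusted p = 0.0114) and the mitotic kinase gene Aurka (1.25 ± 0.33, adjusted p = 0.0324) also had a higher effect in PWK, and the female-biased P450 gene Cyp2c69 a lower one (-2.81 ± 0.75, adjusted p = 0.0306). Aurka, Cyp2c69, Adrb3 and Slc1a2 lost their calls in PWK without high fat replicates 3, 4 and 5 (adjusted p from 0.0552 to 0.265).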
